A study of Arabidopsis thaliana with 18 samples.

Results

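TCP5, TCP13 and TCP17 are 3 transcription factor genes of Arabidopsis thaliana that belong to the CIN class of the TCP family and are known to lack a target site for the microRNA miR319. They were taken by locus identifier (AT5G60970, AT3G02150 and AT5G08070) and make up 3 of the 33602 loci counted, 3 of 24 TCP genes and 3 of 8 CIN-class TCP genes. The other 5 CIN-class genes, TCP2, TCP3, TCP4, TCP10 and TCP24, are known targets of miR319. Leaf 5 of 3 genotypes was cut into margin and center and sequenced as RNA, in 18 libraries that form 6 groups of 3. The genotypes were wild-type Col0, a tcp2-tcp4 double mutant (2KO) and a tcp2-tcp3-tcp4-tcp10 quadruple mutant (4KO). TCP5, TCP13, TCP17 and TCP24 were not mutated in any of them, and the labels name no alleles. Leaf 5 was collected when leaf 7 emerged, at Zeitgeber time 6 (hours after lights on), and every library pooled pieces from 15 to 20 plants grown at 23 °C with 16 h of light. Transfer to the greenhouse was staggered by 2 days between lines, with 4KO moved before 2KO and Col0 last, so genotype and growth time cannot be told apart.

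TCP proteins bind DNA through a basic helix-loop-helix domain that is shared across the family and named after its founding members. CIN-class TCPs are known for ending cell division and promoting differentiation in growing leaves, and miR319 limits the transcripts of the targeted members. TCP5, TCP13 and TCP17 form a subgroup whose transcripts escape that control. They are known to act redundantly in leaf shape and margin development, and in shade and warmth responses through PIF4 and auxin synthesis. TCP13, listed in RefSeq under the symbol PTF1, was first described as a factor that binds a plastid promoter.

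The sequences below show the difference in miR319 pairing that sets these 3 genes apart from the other 5. All were read from the TAIR10.1 genome of RefSeq. The mature miR319 sequences are written 5′ to 3′ with the seed, bases 2 to 8, in capitals. MIR319a lies at chr4:12353109-12353129 on the plus strand and MIR319b, with the same mature sequence, at chr5:16660469-16660489 on the minus strand. MIR319c lies at chr2:17029870-17029890 on the plus strand.
MIR319a: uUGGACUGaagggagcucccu
MIR319c: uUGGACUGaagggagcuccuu
The best-paired window of 21 bases was then found in each transcript by counting Watson-Crick pairs with MIR319a. Windows are written 5′ to 3′ on the transcript strand, and capitals mark the bases without a Watson-Crick pair. All 8 windows lie in the coding sequence.
TCP2: CAggGgGAcccttcagtccaa
TCP3: GAggGgTCcccttcagtccaT
TCP4: GAggGgTCcccttcagtccaG
TCP10: aAggGgTAcccttcagtccaG
TCP24: TAggGgGAcccttcagtccaa
TCP5: GACAagctAcctCcTCtAcaa
TCP13: aggCaAAGAccGtcaCAGcaa
TCP17: TAgCagctcTTAtcaCtAcaa

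In the 5 known targets, 15 or 16 of 21 bases paired, and bases 2 to 12 of the microRNA were all paired. These windows lie at chr4:10163402-10163422 (TCP2, minus strand), chr1:19850522-19850542 (TCP3, minus strand), chr3:5063300-5063320 (TCP4, plus strand), chr2:13221210-13221230 (TCP10, minus strand) and chr1:10628989-10629009 (TCP24, minus strand). In TCP5 the best window, at chr5:24536278-24536298 on the minus strand, paired at 12 of 21 bases and at 7 of the 11 core positions. In TCP13 it lay at chr3:391740-391760 on the plus strand and paired at 12 bases and at 7 core positions, and a second window scored the same. In TCP17 it lay at chr5:2585388-2585408 on the plus strand and paired at 13 bases and at 6 core positions. A window as well paired as that of TCP5 or TCP13 was held by 78.1% of 27440 transcripts (1 per gene), and one as well paired as that of TCP17 by 33.7%. For 15 pairs, the score of TCP3 and TCP4, the share was 1.16%, and for 16 pairs it was 0.164%. Full pairing over bases 2 to 12 occurred in 14 transcripts, or 0.051%. The median transcript had a best window of 12 paired bases, the score of TCP5 and TCP13. A window is a description of letters and was not tested as a binding site.

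In TAIR10.1 the members sit apart in the genome. TCP5 spans chr5:24535337-24537244 on the minus strand, TCP13 spans chr3:390720-392767 on the plus strand and TCP17 spans chr5:2584358-2586035 on the plus strand. Each has 2 exons after its transcripts are merged, with 1678, 1795 and 1328 exon bases, and none overlaps another annotated gene. The longest stretch of identical bases between any pair of their transcripts was 20 bases (TCP5 and TCP17). The letters GGNCC, the core of motifs bound by TCP proteins, which read the same on both strands, occurred in the 250 bases upstream of none of the 3 members, while 27.2% of 27443 such regions held them. Their absence is not particular to the members. They were also absent upstream of TCP3, TCP4, TCP10 and TCP24, and TCP2 had 1 site.

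Libraries held 5.93 M to 12 M reads (mega, M) counted in genes, and 17763 loci passed the filter on low counts, all 3 members among them. The mutated genes checked the labels. In the margin TCP2 fell from 63.4 ± 2.54 CPM (counts per M reads, TMM-scaled; SD, n = 3) in Col0 to 10.8 ± 0.857 in 2KO and 8.82 ± 0.865 in 4KO. TCP4 fell from 110 ± 8.57 to 20.6 ± 1.86 and 23.6 ± 2.37 CPM. TCP10 had 80.0 ± 1.49 CPM in Col0, 91.6 ± 11.3 in 2KO and 8.89 ± 1.05 in 4KO. TCP3 had 2.81 ± 0.949 CPM in Col0 and 0.432 ± 0.182 in 4KO, but another gene overlaps most of its exons. In 2 libraries, Col0 margin 1 (8.6%) and 2KO margin 3 (16%), more reads aligned to several places than in the other 16 (3.71% to 4.97%). The fits of single genes and the list counts were also run without both of them. Shoot meristem markers were near 0, with 1 read of STM, 0 of WUS and 2 of CLV3 over all 18 libraries, while mesophyll, epidermis, guard cell, phloem, xylem and trichome markers all had reads.

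The first comparison asked where in the leaf the 3 genes were expressed. All 3 were higher in the margin than in the center in every genotype, at least 2-fold on the fitted scale, and for each gene the lowest of the 9 margin libraries lay above the highest of the 9 center libraries. TCP17 had the steepest difference in all 3 genotypes and the lowest level. Part of this difference was known when the genes were chosen, so the values of each library are given first.

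TCP5 in Col0 had 12.6, 9.40 and 13.2 CPM in margin libraries 1, 2 and 3, and 4.49, 5.32 and 5.16 CPM in center libraries 1, 2 and 3. In 2KO its margin held 11.8, 13.0 and 15.2 CPM and its center 4.91, 4.47 and 5.41 CPM. In 4KO its margin held 14.7, 12.7 and 14.8 CPM and its center 4.34, 5.21 and 7.05 CPM. Margin and center libraries did not overlap in any genotype. The closest approach over all 18 libraries was between Col0 margin 2 at 9.40 CPM and 4KO center 3 at 7.05 CPM. The margin exceeded the center by a log2 fold change of 1.22 ± 0.17 (SE) in Col0, a fold of 2.32 (edgeR quasi-likelihood test, adjusted p = 7.47e-05). It was 1.39 ± 0.17 in 2KO (edgeR, adjusted p = 1.53e-05) and 1.36 ± 0.15 in 4KO (edgeR, adjusted p = 1.48e-06).

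TCP13 in Col0 had 10.5, 11.7 and 14.4 CPM in the margin and 4.85, 5.20 and 7.33 CPM in the center. In 2KO it had 13.0, 14.4 and 12.5 CPM in the margin and 5.24, 5.14 and 7.53 CPM in the center. In 4KO it had 12.6, 10.6 and 9.04 CPM in the margin and 5.93, 5.62 and 3.59 CPM in the center. The margin again stood clear of the center, with the smallest gap between 4KO margin 3 and 2KO center 3. The log2 fold change was 1.08 ± 0.20 in Col0 (edgeR, adjusted p = 0.000928), 1.12 ± 0.19 in 2KO (adjusted p = 0.000631) and 1.06 ± 0.19 in 4KO (adjusted p = 0.000242), folds of 2.11, 2.18 and 2.09.

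TCP17 was the weakest of the 3, with 3 to 55 reads per library against 27 to 160 for TCP5 and 27 to 146 for TCP13. In Col0 it had 3.96, 4.03 and 5.02 CPM in the margin and 1.21, 1.61 and 1.56 CPM in the center. In 2KO it had 4.29, 5.29 and 4.18 CPM in the margin and 1.15, 0.497 and 1.38 CPM in the center. In 4KO it had 5.04, 4.31 and 4.00 CPM in the margin and 2.22, 1.14 and 1.20 CPM in the center. The lowest margin library, Col0 margin 1, lay above the highest center library, 4KO center 1. The log2 fold change was 1.56 ± 0.27 in Col0 (edgeR, adjusted p = 0.000659), 2.11 ± 0.29 in 2KO (adjusted p = 5.79e-05) and 1.55 ± 0.25 in 4KO (adjusted p = 8.51e-05), folds of 2.95, 4.32 and 2.94.

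**Figure D1:**
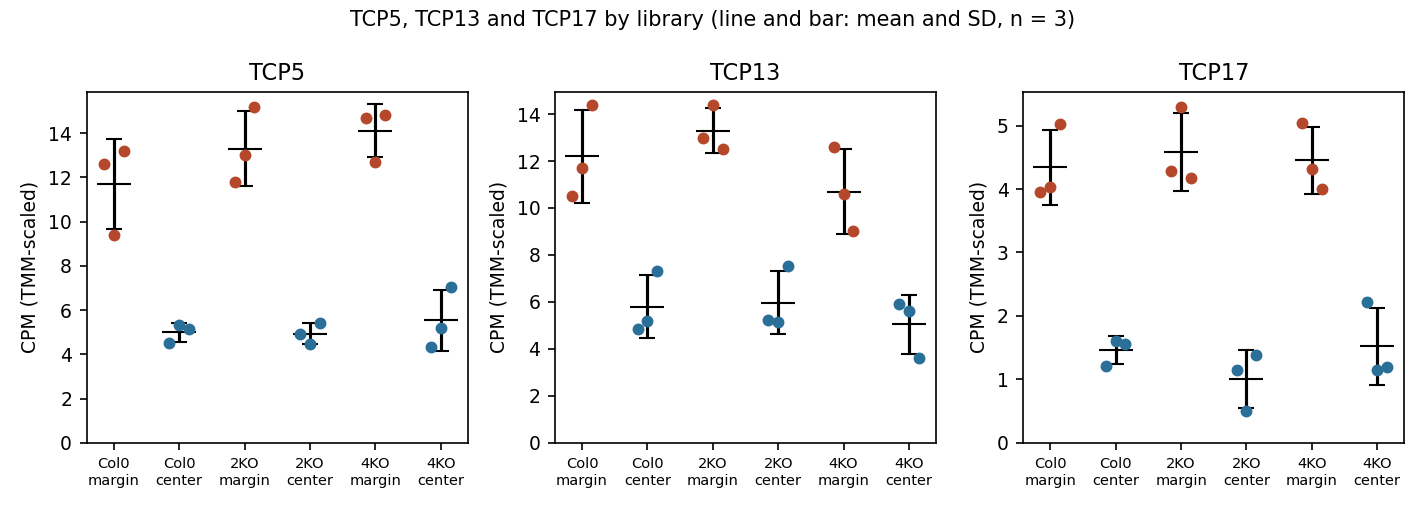
Level of TCP5, TCP13 and TCP17 in each library, in TMM-scaled CPM, for the 6 groups of genotype and leaf piece; points are libraries, the line and bar are the mean and SD of 3. In each panel the 9 margin libraries lie above the 9 center libraries, with lowest margin values of 9.40, 9.04 and 3.96 CPM and highest center values of 7.05, 7.53 and 2.22 CPM.

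These counts stand against a background that differs between genotypes. In Col0 11.4% of the loci tested were called (adjusted p under 0.05) between margin and center, with 5.30% higher and 6.13% lower in the margin. In 2KO 7.51% were called and 2.47% were higher in the margin, and in 4KO 25.6% and 12.1%. All 3 members were called in each. A call as higher in the margin in each of the 3 genotypes was shared by 109 loci (0.614%), and with at least a 2-fold difference in each by 28 loci (0.158%), which include the 3 members. All 9 margin libraries lay above all 9 center libraries at 68 loci (0.383%), and within 1 genotype the 3 margin libraries lay above the 3 center libraries at 14.6% of loci in Col0, 10.7% in 2KO and 21.1% in 4KO. By size of the margin difference, TCP17, TCP5 and TCP13 stood at places 90, 164 and 227 of the 17763 loci in Col0, at 44, 105 and 160 in 2KO and at 121, 167 and 305 in 4KO.

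Within the TCP family the same 3 genes stood at the top in each genotype. Among the 18 TCP genes that passed the filter, TCP17 ranked the first, TCP5 the second and TCP13 the third by margin difference in Col0, in 2KO and in 4KO. The next gene in Col0 was TCP3 at 0.53 ± 0.31 log2, which was not called, followed by the miR319 target TCP4 at 0.47 ± 0.094 (edgeR, adjusted p = 0.00216). Of the other miR319 targets, TCP10 had 0.38 ± 0.092 (edgeR, adjusted p = 0.00966), and TCP2 had −0.04 ± 0.070 and was not called. The TCP10 call was lost without Col0 center 3 (0.32, edgeR, adjusted p = 0.0605). TCP10 was also higher in the margin in 2KO (0.52 ± 0.092, edgeR, adjusted p = 0.000841). The same held in 4KO, where it is mutated (0.85 ± 0.15, edgeR, adjusted p = 0.000287). In both mutants it ranked next after TCP13, which had 1.06 ± 0.19 in 4KO. At the other end, TCP1, a gene of the CYC class known for its part in flowers and shoots, had no read in the Col0 margin and 1.67 ± 0.509 CPM in the Col0 center. Of the 9 class I TCP genes tested, of 13 listed, none was higher in the Col0 margin and TCP15 was lower (−0.62 ± 0.078, adjusted p = 1.91e-05, edgeR). Over all loci 5.30% were higher and 6.13% lower there. In 2KO 2 of the 9 were called, both lower in the margin, against 7.51% of all loci called. In 4KO 7 of the 9 were called, against 25.6% of all loci. Of these, 6 were lower in the 4KO margin and TCP19 was higher (0.70 ± 0.16, edgeR, adjusted p = 0.00205).

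**Figure D2:**
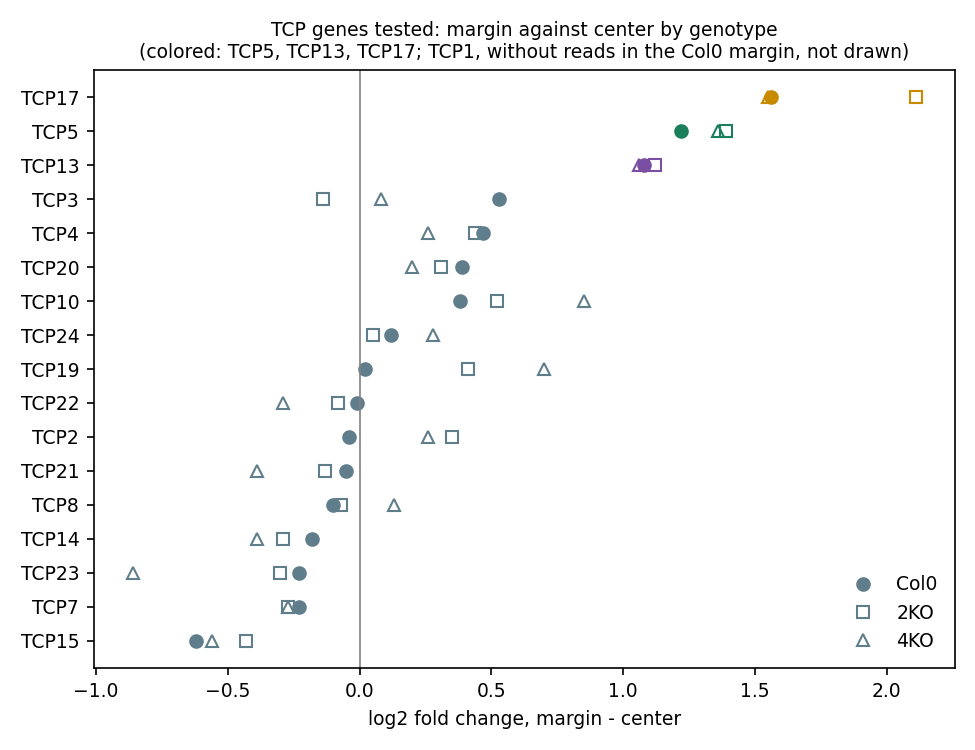
Margin minus center log2 fold change of the TCP genes that passed the filter, by genotype (filled circle Col0, open square 2KO, open triangle 4KO); TCP1, with 0 reads in the Col0 margin, is not drawn. TCP17, TCP5 and TCP13 hold the 3 highest values in every genotype, all above 1, and TCP15 has −0.62 in Col0.

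Margin and center libraries with the same number of a genotype varied together, so the margin to center ratio was also taken within each of the 9 pools. For TCP5 it ran from 1.77 to 3.39 with a median of 2.56. For TCP13 it ran from 1.66 to 2.8 with a median of 2.16. For TCP17 it ran from 2.27 to 10.64 with a median of 3.27. Every pool had more of each gene in the margin, which follows from the separation of the 9 margin and 9 center libraries and adds no support. The highest TCP17 ratio, in 2KO pool 2, came from 51 reads in the margin and 3 in the center, and the next highest was 3.78. With the pool as a block in the fit all 9 tests gave the same calls, and the counts of loci called rose to 21.6% in Col0, 17.1% in 2KO and 36.3% in 4KO.

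**Figure D3:**
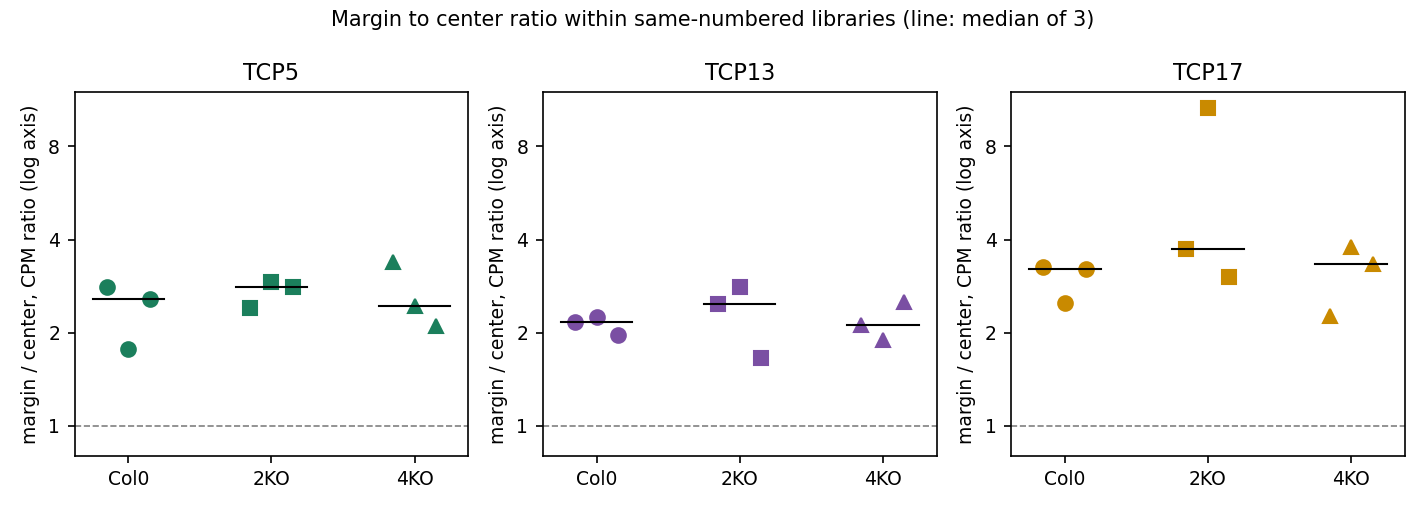
Ratio of margin to center CPM within each pair of same-numbered libraries, on a log axis, for the 3 genes; the line is the median of 3 pools and the dashed line marks equal levels. All 27 ratios lie above 1, as the separation of the libraries requires, and 1 TCP17 ratio (10.64, from 3 center reads) stands apart.

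Markers of leaf cell types also differed between margin and center, and their part in the result was not tested. Of all loci tested, 11.4% were called between the pieces in Col0, 7.51% in 2KO and 25.6% in 4KO. In Col0 3 of 4 guard cell markers and 3 of 4 phloem markers were higher in the margin, and summed phloem markers held 257 to 268 CPM in the margin and 141 to 155 CPM in the center. Summed guard cell markers held 134 to 167 CPM and 100 to 104 CPM. Of the remaining Col0 lists, 1 of 4 xylem markers and 1 of 3 epidermis markers were lower in the margin, and none of 3 mesophyll or 3 trichome markers was called. In 2KO 3 of 4 guard cell markers (113 to 132 against 86.9 to 98.2 CPM), 1 of 4 phloem markers (150 to 187 against 110 to 149 CPM) and 1 of 3 epidermis markers were higher, and 3 of 4 xylem markers were lower. In 4KO the pattern was another one. There 0 of 4 guard cell markers were called (73.6 to 80.7 CPM against 70.6 to 87.5 CPM), 1 of 4 phloem markers was lower (51.2 to 59.0 against 64.8 to 82.2 CPM) and 4 of 4 xylem markers were lower (70.4 to 71.6 against 139 to 162 CPM). All 3 epidermis markers (1.01e+03 to 1.05e+03 against 605 to 703 CPM) and all 3 trichome markers (42.2 to 46.8 against 12.9 to 17.9 CPM) were higher in the 4KO margin, and 2 of 3 mesophyll markers were lower. In bulk tissue, fewer cells that express a gene and less RNA per cell cannot be told apart.

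The second comparison asked whether the 3 genes moved when miR319-targeted TCP genes were mutated. None of the 3 was called between any of the genotypes in either piece, 18 tests in all (edgeR; adjusted p from 0.139 to 1.00), nor by DESeq2 where it gave an adjusted p, and none had an unadjusted p under 0.05. In every one of these 18 comparisons the libraries of the groups overlapped, although groups without overlap were common among all loci. In the margin the libraries did not overlap at 28.9% of loci between 2KO and Col0, at 52.7% between 4KO and Col0 and at 40.0% between 4KO and 2KO. In the center these shares were 24.7%, 43.9% and 25.0%. The margin means of TCP5 were 11.7 ± 2.03 CPM in Col0, 13.3 ± 1.71 in 2KO and 14.1 ± 1.20 in 4KO (SD, n = 3). Those of TCP13 were 12.2 ± 1.97, 13.3 ± 0.976 and 10.7 ± 1.81 CPM, and those of TCP17 were 4.34 ± 0.596, 4.59 ± 0.614 and 4.45 ± 0.535 CPM. In the center TCP5 had 4.99 ± 0.444, 4.93 ± 0.468 and 5.53 ± 1.38 CPM in Col0, 2KO and 4KO. TCP13 had 5.79 ± 1.34, 5.97 ± 1.35 and 5.04 ± 1.27 CPM, and TCP17 had 1.46 ± 0.216, 1.01 ± 0.457 and 1.52 ± 0.609 CPM. The libraries of any 2 genotypes overlapped for each gene in each piece, so the data do not order the genotypes.

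The intervals give the range of changes that the data did not exclude. Between 4KO and Col0 in the margin, where 43.9% of the loci were called, TCP5 had a log2 fold change of 0.27 ± 0.14 with a 95% interval from −0.04 to 0.59. TCP13 had −0.18 ± 0.17 with an interval from −0.56 to 0.19, and TCP17 had 0.04 ± 0.22 with an interval from −0.44 to 0.51. Between 2KO and Col0 in the margin, where 14.1% of loci were called, the values were 0.17 ± 0.15, 0.13 ± 0.17 and 0.09 ± 0.22 for TCP5, TCP13 and TCP17. Between 4KO and 2KO in the margin (25.8% called) TCP13 had −0.31 ± 0.16, with an interval from −0.67 to 0.05, TCP5 had 0.10 ± 0.14 and TCP17 had −0.05 ± 0.21. A doubling lay outside the intervals of all 3 genes in these margin comparisons. The miR319 target TCP24, also unmutated, was called in the 4KO margin against Col0 at 0.18 ± 0.072 (edgeR, adjusted p = 0.0469). That call was lost in each of the 6 other settings, such as DESeq2 (adjusted p = 0.132) and RLE scaling (adjusted p = 0.0738). Each member had a larger SE than TCP24 there, so a change of the same size was harder to call.

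In the center the errors were wider, above all for TCP17. Between 4KO and Col0, where 31.1% of loci were called, TCP5 had 0.12 ± 0.19, TCP13 −0.17 ± 0.21 and TCP17 0.05 ± 0.32, the last with an interval from −0.64 to 0.74. Between 2KO and Col0 (6.15% called) TCP17 had −0.46 ± 0.36 with an interval from −1.25 to 0.33, while TCP13 had 0.08 ± 0.22 and TCP5 −0.00 ± 0.20. Between 4KO and 2KO (7.93% called) TCP17 had 0.51 ± 0.35 with an interval from −0.26 to 1.27, TCP5 0.12 ± 0.19 and TCP13 −0.25 ± 0.22. TCP17 had 3 to 21 center reads per library, and its intervals did not exclude a doubling from 2KO to 4KO or a halving from Col0 to 2KO.

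**Figure D4:**
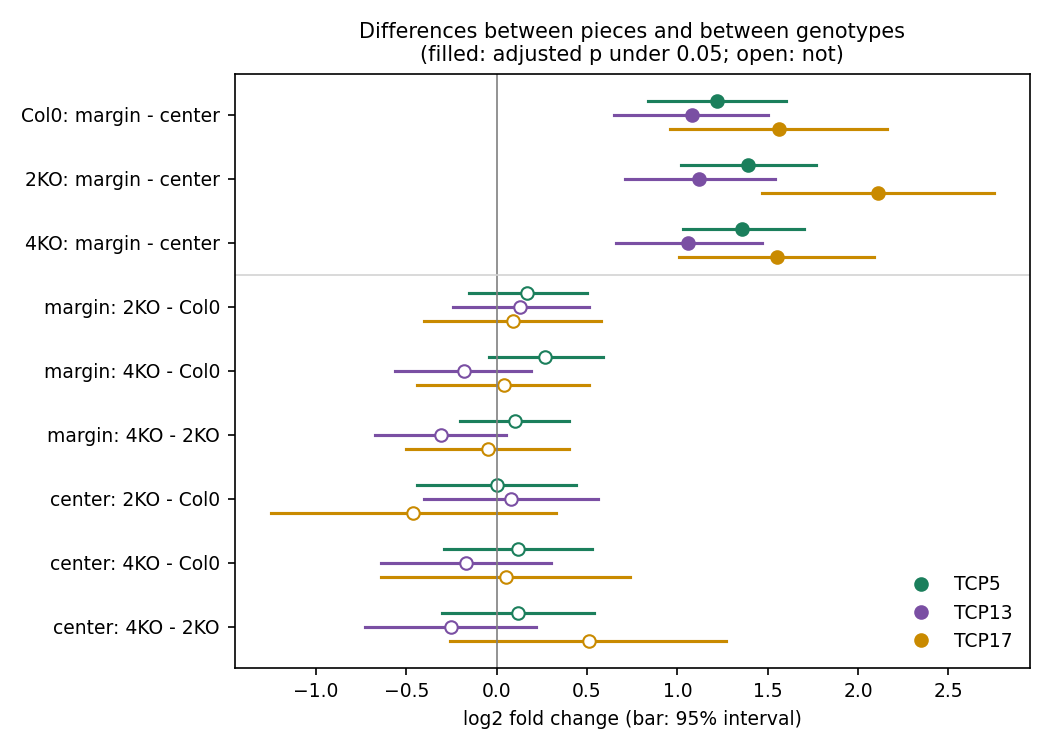
Log2 fold change with its 95% interval for TCP5, TCP13 and TCP17 in the 3 comparisons of margin with center (top) and the 6 comparisons between genotypes (below); filled points have an adjusted p under 0.05. All 9 margin differences are filled and lie above 1, and all 18 genotype values are open with intervals that include 0.

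The margin difference itself was also compared between genotypes, as an interaction. None of the 9 interactions was called (edgeR, adjusted p from 0.577 to 0.999; none had an unadjusted p under 0.05). The largest were those of TCP17, at 0.55 ± 0.43 for 2KO minus Col0 (interval −0.38 to 1.47) and −0.56 ± 0.41 for 4KO minus 2KO (interval −1.44 to 0.33). For 4KO minus Col0 the interactions were 0.15 ± 0.24 for TCP5, −0.01 ± 0.28 for TCP13 and −0.01 ± 0.37 for TCP17, with an interval for TCP5 from −0.37 to 0.67. Interactions were called at 0.439% of loci for 2KO minus Col0, at 17.2% for 4KO minus Col0 and at 2.90% for 4KO minus 2KO. With leaf pools as a block, these shares were 7.58%, 28.1% and 11.3%, and none of the members' interactions was called.

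The 3 members were then set against each other. A ratio of 2 genes within a library does not depend on library scaling. It was taken after 0.5 reads were added to each count. Its margin minus center difference was tested by an exact 2-sided permutation of the piece labels within genotypes (8000 arrangements, 3 pairs of genes, 18 libraries). That permutation does not keep same-numbered libraries paired. TCP17 rose against TCP13 in the margin by 0.65 on the log2 scale (exact permutation, p = 0.000250, adjusted p = 0.000750). The rise was 0.46 in Col0, 1.03 in 2KO and 0.47 in 4KO. It was positive in 9 of 9 pools, and sign flips of the pools, which keep the pairing, gave an adjusted p of 0.0117. TCP17 against TCP5 gave 0.44 (exact permutation, p = 0.0438, adjusted p = 0.0656; positive in 8 of 9 pools), which failed the correction. TCP5 against TCP13 gave 0.21 (exact permutation, p = 0.222; positive in 6 of 9 pools). Without 2KO pool 2, which had 3 center reads of TCP17, TCP17 against TCP13 gave 0.54 (exact permutation, adjusted p = 0.00250). TCP17 against TCP5 then gave 0.29 (exact permutation, adjusted p = 0.159). With 2 reads added to each count in place of 0.5, and all pools kept, these values were 0.53 and 0.32. Per length of exon, TCP17 made up 19.2 ± 0.871% of the 3 genes' summed level in the Col0 margin and 15.1 ± 1.36% in the Col0 center (SD, n = 3). In 2KO it made up 18.3 ± 1.88% and 10.5 ± 3.61%, and in 4KO 18.9 ± 0.922% and 15.6 ± 5.63%. TCP5 and TCP13 shared the rest, with 41.0 ± 4.54% and 39.9 ± 3.68% in the Col0 margin and 47.4 ± 4.27% and 33.7 ± 3.36% in the 4KO margin.

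Set beside the miR319 targets, the 3 genes were a small part of the CIN-class level in the wild type and a larger part in the mutants. That level includes the mutated genes, whose transcripts were lower in the mutants, so a larger share was built into the measure. Per length of exon (CPM per kb), TCP5, TCP13 and TCP17 together had 17.0 ± 2.33 in the Col0 margin, 18.8 ± 1.16 in the 2KO margin and 17.7 ± 1.61 in the 4KO margin. The 5 miR319 targets together had 154 ± 6.27, 96.7 ± 4.83 and 56.9 ± 3.31 in the same margins. The share of the 3 genes in the CIN-class level was therefore 9.95 ± 0.896% in the Col0 margin, 16.3 ± 0.748% in 2KO and 23.8 ± 2.63% in 4KO. In the center the 3 genes had 7.30 ± 1.02, 7.02 ± 1.31 and 7.25 ± 0.268 CPM per kb, the 5 targets had 130 ± 1.48, 78.2 ± 1.51 and 45.7 ± 0.380, and the shares were 5.32 ± 0.649%, 8.22 ± 1.37% and 13.7 ± 0.410%. The group means of the 3 genes' sum lay between 17.0 and 18.8 CPM per kb in the margins and between 7.02 and 7.30 in the centers, while the mean of the 5 targets' sum was lower in each mutant than in Col0. Transcripts of a mutated gene can still be counted although the gene is disrupted, and TCP24 had 37.7 ± 2.99 CPM per kb in the 4KO margin, where all 8 genes had 74.6 ± 2.08. The lowest 4KO margin library had 21.9% and the highest Col0 margin library 11.0%.

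**Figure D5:**
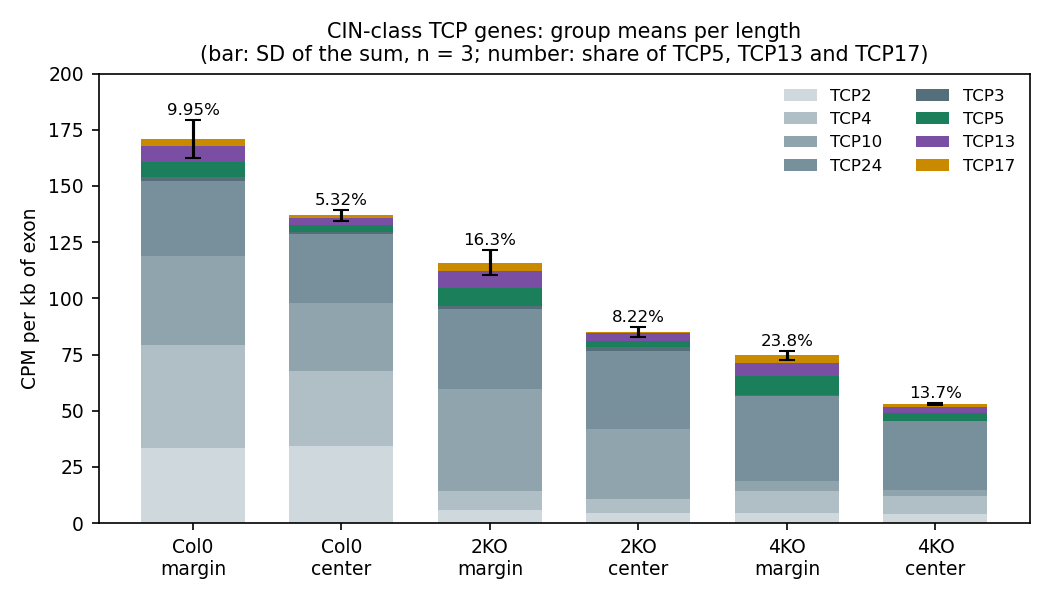
Group means of the 8 CIN-class TCP genes, stacked, in CPM per kb of exon, for the 6 groups; the bar is the SD of the sum over 3 libraries and the number is the share of TCP5, TCP13 and TCP17. The colored segments (17.0, 18.8 and 17.7 CPM per kb in the margins of Col0, 2KO and 4KO) have SDs of 2.33, 1.16 and 1.61. The gray segments shrink in sum, and the margin share goes from 9.95% to 23.8%. Not every gray segment shrinks: unmutated TCP24 has 33.3, 35.5 and 37.7 CPM per kb in the same margins.

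Genes with a pattern like the members' over the 18 libraries were ranked by Pearson correlation of log2 CPM among 6835 loci with a symbol and at least 5 CPM in the highest group mean. All points share the piece and the genotype of their library, so the values are a description. For TCP5 the most alike were ACA2, a carbonic anhydrase (r = 0.934), ZIP7, a metal transporter (0.914), AGP4, an arabinogalactan protein (0.903), PAP29, a purple acid phosphatase (0.890), and ACR4, an ACT domain repeat protein (0.889). ACA2 had 23.9, 30.8 and 34.7 CPM in the margins of Col0, 2KO and 4KO and 14.3, 15.0 and 12.8 CPM in the centers. Among the most opposite to TCP5 were FMO GS-OX1, an S-oxygenase of aliphatic glucosinolates (−0.929), and PROT1, a proline transporter (−0.927). FMO GS-OX1 had 2.75 CPM in the Col0 margin and 16.3 CPM in the Col0 center.

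For TCP13 the most alike were ACR4 (0.873), the oligopeptide transporter OPT1 (0.871), the sulfate transporter AST91 (0.870), TAA1 (0.867) and the plastid ATP/ADP carrier ATNTT2 (0.867). TAA1, the aminotransferase that opens the main route to auxin, had 13.8, 9.17 and 5.77 CPM in the margins of Col0, 2KO and 4KO and 3.09, 2.82 and 1.51 CPM in the centers. The most opposite were TSA1 (−0.927), ENODL19 (−0.918) and PMP (−0.918). For TCP17 the most alike were TCP13 (0.901) and TCP5 (0.898) themselves, then the asparagine synthetase ASN3 (0.894), P5CR of proline synthesis (0.866) and ACR4 (0.861), and the most opposite were TSA1 (−0.929), VHA-A, a subunit of the vacuolar proton pump (−0.925), and GSTF2, a glutathione transferase (−0.907). TSA1 had 4.52 CPM in the Col0 margin and 21.9 CPM in the Col0 center. Among all 17762 other loci TCP17 stood at place 8 for TCP5 and at place 3 for TCP13. TCP5 and TCP13 correlated at 0.840, with TCP13 at place 44 for TCP5 and TCP5 at place 29 for TCP13. TCP17 itself was under 5 CPM in every group mean and could not be named for the other pair. By Spearman correlation 2, 1 and 2 of the 5 most alike genes were among the highest 5 for TCP5, TCP13 and TCP17.

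A list of 10 genes reported elsewhere as regulated by TCP5, TCP13 or TCP17 had 7 members that passed the filter. In Col0 2 of the 7 were higher in the margin and none was lower, with a median log2 fold change of 0.14 against 0.00 for all loci. Of all loci, 5.30% were higher and 6.13% lower in the Col0 margin. YUC2, a flavin monooxygenase of auxin synthesis, rose to 8.06 ± 1.08 CPM in the margin from 2.35 ± 0.392 in the center (1.76 ± 0.23, edgeR, adjusted p = 3.18e-05). It was also higher in the margin in 2KO (1.67 ± 0.25, adjusted p = 0.000134) and in 4KO (1.92 ± 0.26, edgeR, adjusted p = 1.34e-05). BLH2, a BELL homeodomain factor of leaf margins, was higher by 0.29 ± 0.092 in Col0 (edgeR, adjusted p = 0.0445), a call lost in DESeq2 (adjusted p = 0.132), with only the groups compared (edgeR, adjusted p = 0.125) and when any 1 of 4 of the 6 libraries was left out. KNAT3, PIF4, PIF5, BLH4 and HB-12 were not called there. YUC5, YUC8 and ACS2 did not pass the filter. In 2KO 2 of the 7 were higher in the margin and none was lower, where 7.51% of all loci were called. In 4KO 1 was higher and 2 were lower, with a median of −0.12 and 25.6% of all loci called. The lower pair in 4KO were PIF4 (−1.03 ± 0.083, edgeR, adjusted p = 1.50e-08) and PIF5 (−0.46 ± 0.10, edgeR, adjusted p = 0.00263).

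Between genotypes, where the members were not called, the calls in the list were most numerous for 4KO against Col0. For 2KO minus Col0, 3 of 7 were called in the margin and 1 of 7 in the center, all lower, against 14.1% and 6.15% of all loci. For 4KO minus 2KO, 4 of 7 and 1 of 7 were called, all lower, against 25.8% and 7.93%. In the 4KO margin 6 of 7 were lower than in Col0 and 1 was higher, with a median of −0.73 against 0.03 for all loci, of which 21.8% were lower and 22.1% higher. PIF4, the light and temperature factor, had 43.2 ± 4.86 CPM in the 4KO margin and 81.7 ± 3.58 in the Col0 margin (−0.92 ± 0.084, edgeR, adjusted p = 2.29e-08). KNAT3, a class II KNOX homeodomain factor, had 24.0 ± 0.663 and 42.8 ± 1.87 CPM (−0.83 ± 0.092, edgeR, adjusted p = 2.80e-07). HB-12, an HD-ZIP factor, was the gene that was higher (0.60 ± 0.21, edgeR, adjusted p = 0.0245). That call was lost without 4KO margin 1 (0.34, adjusted p = 0.196) or Col0 margin 1 (0.49, adjusted p = 0.0977), without both libraries with many multiply aligned reads (adjusted p = 0.0927), in DESeq2 (adjusted p = 0.0527) and with only the groups compared (edgeR, adjusted p = 0.0532). In the 4KO center 4 were lower and 1 was higher (15.8% and 15.2% of all loci), with KNAT3 at −0.76 ± 0.093, BLH4 at −0.34 ± 0.065 and HB-12 at 0.91 ± 0.19 (edgeR, adjusted p = 0.00138 for HB-12). Summed mesophyll markers had 2.60e+04 to 3.00e+04 CPM in the 4KO margin and 4.55e+04 to 5.16e+04 CPM in the Col0 margin, with 3 of 3 lower. All 4 phloem markers were lower and all 3 epidermis and 3 trichome markers were higher in the 4KO margin. Their part in these differences was not tested.

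Known partners of CIN-class TCP proteins, which are the TIE repressors, the TOPLESS family of co-repressors, AS1, AS2 and the photoreceptor CRY1, formed a list of 12 genes, of which 9 passed the filter. In Col0 the co-repressor TPR2 (0.29 ± 0.081, edgeR, adjusted p = 0.0209) and CRY1 (0.24 ± 0.074, adjusted p = 0.0394) were higher in the margin and none was lower. The shares of all loci were 5.30% higher and 6.13% lower. The CRY1 call was lost when any 1 of the 6 libraries was left out, and the TPR2 call when any 1 of 4 was. In the 4KO margin 6 of 9 were higher than in Col0 and 2 were lower, with a median of 0.49 against 0.03 for all loci, of which 22.1% were higher and 21.8% lower. AS2, a factor of leaf polarity and outgrowth, rose by 1.70 ± 0.17 (edgeR, adjusted p = 1.07e-07) and its partner AS1 by 1.11 ± 0.11 (adjusted p = 4.39e-08), although another gene overlaps AS1. CRY1 fell by 0.62 on the log2 scale (SE 0.074, edgeR, adjusted p = 8.58e-07). The repressor TIE4 was lower, with 2.09 ± 0.423 CPM in the Col0 margin and 0.0282 ± 0.0488 in the 4KO margin. In the 4KO center 7 were higher and 1 was lower (15.2% and 15.8% of all loci), with TPR1 at 0.47 ± 0.074, AS2 at 0.94 ± 0.16 and TIE4 at 0.169 ± 0.0397 CPM against 1.87 ± 0.358 CPM in Col0. Of the 9 class I TCP genes, 4 were called in the 4KO margin, which is near the 43.9% of all loci called there: 2 were higher (TCP15 by 0.85 ± 0.076, TCP14 by 0.32 ± 0.11) and 2 lower (TCP23 by −1.08 ± 0.17, TCP21 by −0.44 ± 0.11). The TCP14 call in the margin was lost when any 1 of 4 libraries was left out. In the 4KO center 3 were higher and 2 lower, against 15.2% and 15.8% of all loci. The lower pair were TCP23 (−0.45 ± 0.15), whose call was lost in DESeq2 (adjusted p = 0.0932) and when any 1 of 5 of the 6 libraries was left out, and TCP19 (−0.53 ± 0.16), whose call was lost without any 1 of 3 libraries. TCP5, TCP13 and TCP17 were not called between genotypes in either piece.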

How the data were processed

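The authors deposited whole-number read counts per locus for 18 libraries. The TAIR10 build, edgeR 3.8.6, HTSeq 0.7.2 and TopHat2 2.0.13 appear per the submitters' processing notes, with no role. The sources used here do not give library strandedness or the strand counted. The 5 summary rows stayed out of totals and tests: 3.71% to 16% of reads were multiply aligned, 1.38% to 1.57% ambiguous and 0.497% to 1.15% without a feature. Of the loci, 32835 (97.7%) matched the TAIR10.1 gene table, and 9788 had no read. The counts carry no coordinates, so those given come from TAIR10.1 alone.

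The main test was edgeR's quasi-likelihood F test on the counts (version 4.0.16, R 4.3.3; TMM scaling, filterByExpr, 1 mean per group, all 18 libraries), 2-sided, with Benjamini-Hochberg adjustment over 17763 loci and calls at an adjusted p under 0.05. The fits were tested on simulated counts. Intervals at 95% use the SE with 12 residual degrees of freedom. Libraries of a group are separate pools of plants.

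The members and gene lists were chosen with earlier results of these data known. The named genes are the 3 members, the 5 miR319 targets by group, up to 2 list genes per direction with the lowest adjusted p in Col0 margin against center and in 4KO against Col0, and the 5 most and 3 least alike loci of each member, of which 1 is not reported here. TCP3, PIF5, YUC5, YUC8 and ACS2 are named beside them only to account for a list or order.

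Whether equal numbers mark the same leaves is not stated. After group means were removed, each of the 9 same-numbered margin and center libraries had a correlation of 0.196 to 0.384 over 5000 genes, and 18 of 18 libraries correlated best with their own number. The leaf pool was therefore used as a block as well. Alternatives were RLE scaling, DESeq2 1.42.0, no filter, only the groups compared, blocks and leaving out libraries.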

Additional observations from a re-analysis of the deposited data

Results flagged for a closer look

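The margin difference of TCP5, TCP13 or TCP17 was not called as different between genotypes. Among the listed partners, reported targets and class I genes, the following were called by edgeR's interaction test. Between 4KO and Col0 the margin minus center difference of PIF4 was lower by −1.03 ± 0.12 on the log2 scale (edgeR, adjusted p = 4.01e-06), since it had 43.2 CPM in the 4KO margin against 88.1 in the 4KO center and 81.7 and 81.2 CPM in Col0. That of PIF5 differed by −0.63 ± 0.15 (edgeR, adjusted p = 0.00500) and that of CRY1 by −0.49 ± 0.10 (edgeR, adjusted p = 0.00259). AS1 differed by 0.77 ± 0.15 (edgeR, adjusted p = 0.00150), AS2 by 0.76 ± 0.25 (adjusted p = 0.0393) and TCP19 by 0.69 ± 0.23 (adjusted p = 0.0400). Between 4KO and 2KO the difference of PIF4 was −0.79 ± 0.12 (edgeR, adjusted p = 0.000898). Groups of 3 libraries are too small for a check of single outlying libraries.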

How the results depend on the processing

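All 9 margin differences kept their direction and call in all 51 results from other settings. The settings were RLE scaling, DESeq2, no filter, only the groups compared, leaf-pool block, and the 2 libraries with many multiply aligned reads left out. The differences also held in all 54 results from edgeR fits without 1 library (0.89 to 2.47 log2, highest adjusted p 0.00962). No member was called between genotypes or in an interaction under any setting. DESeq2 gave no adjusted p for the members between 2KO and Col0 in the center.

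Values near 0 changed sign. Without the low count filter TCP5 had 0.007 for 2KO minus Col0 in the center. Without the 2 libraries TCP17 had −0.013 for 4KO minus Col0 in the margin, and the interactions were −0.006 (TCP13, 2KO minus Col0) and 0.060 (TCP5, 4KO minus 2KO). With the leaf-pool replicate block the TCP17 interaction for 4KO minus Col0 was 0.003.
Without 1 library, values of either sign were reached for TCP17 in the margin (2KO minus Col0 −0.032 to 0.207, 4KO minus Col0 −0.067 to 0.157, 4KO minus 2KO −0.153 to 0.071). In the center this held for 2KO minus Col0 (TCP5 −0.09 to 0.063, TCP13 −0.16 to 0.29), for 4KO minus Col0 (TCP5 −0.038 to 0.259, TCP13 −0.283 to 0.036, TCP17 −0.33 to 0.26) and for 4KO minus 2KO (TCP5 −0.042 to 0.261). In interactions it held for 2KO minus Col0 (TCP13 −0.16 to 0.29), 4KO minus Col0 (TCP5 −0.001 to 0.30, TCP13 −0.22 to 0.12, TCP17 −0.22 to 0.36) and 4KO minus 2KO (TCP5 −0.16 to 0.14, TCP13 −0.304 to 0.048).

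The ratio of TCP17 to TCP5 ranged from 0.29 to 0.57 and passed only without 4KO pool 1 (adjusted p = 0.00125); by sign flips of leaf pools as a replicate block it had an adjusted p of 0.0645. The TCP17 to TCP13 call held throughout (sign flips, adjusted p = 0.0117). Without TMM the TCP5 level in the 4KO margin was 15.6 CPM. By reads not divided by length the CIN-class shares were 8.22% (Col0 margin), 4.46% (Col0 center), 14.2% (2KO margin) and 12.2% (4KO center).

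The leaf-pool block raised loci called between margin and center from 2030 to 3836 in Col0 and from 1334 to 3041 in 2KO, and in interactions from 78 to 1347 (2KO minus Col0), 3047 to 4996 (4KO minus Col0) and 515 to 2008 (4KO minus 2KO). With only the groups compared, calls fell to 764 for the 2KO pieces, from 1093 to 674 (2KO minus Col0) and from 1409 to 750 (4KO minus 2KO) in the center, and to 39 for the first interaction, which had 118 in DESeq2 and 175 without the filter. Reported targets called in the Col0 pieces numbered 1 (DESeq2, groups compared) to 4 (no filter) against 2. The replicate number does not pair genotypes (−0.233 to 0.173, 18 pairs) and as a replicate block called none of the members. TCP17 had 3 to 21 reads per center library. The cause of these changes was not tested.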
